A study of Mus musculus with 29 samples.

Results

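The 7 genes described here, Ly6d, Lrtm2, Scn2a, Tekt5, Eps8l3, Ddr1 and Ccdc120, were picked from the 22028 coding genes of the deposited count table because their levels were low in liver of 10-month-old mice and clearly measurable in liver adenomas of the same age. All 7 were found in the table. The difference between adenoma and 10-month liver that chose them is therefore given as a description, with no test. Bounds that hold for all 7 are a mean of at most 2.13 CPM in both liver groups, a mean of at least 3.75 CPM in adenoma and a ratio of at least 9.26 (CPM is a gene's count scaled to the size of its library, here with TMM factors). Of 13474 genes with enough counts for a test, 102 others lay within the same bounds, which with the 7 is 0.809%.

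The 7 genes do not form a pathway. Ly6d encodes a small protein held in the outer membrane by a lipid anchor and marks squamous epithelium, urothelium and early lymphoid cells. Scn2a encodes a pore-forming subunit of voltage-gated sodium channels of brain neurons, and Lrtm2 a single-pass membrane protein with leucine-rich repeats. Ddr1 encodes a receptor tyrosine kinase that binds collagen and is common in epithelia, and Eps8l3 belongs to the EPS8 family, which links such receptors to the actin cytoskeleton. Tekt5 encodes a tektin, a filament protein of microtubules in the sperm tail, and Ccdc120 a coiled-coil protein known from cultured human cells at the subdistal appendages of the mother centriole. A liver adenoma is a benign tumour of hepatocytes, a cell type in which none of these genes is a standard marker.

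RNA was sequenced from frozen tissue of male mice whose mothers drank water with tributyltin (TBT), an organotin compound, in gestation and lactation, or belonged to the arm labelled VEH. The groups were 7 adenomas of TBT mice at 10 months, 5 livers of TBT mice at 10 months, 6 livers of VEH mice at 10 months, 5 livers of TBT mice at 5 months and 6 livers of VEH mice at 5 months. All 7 adenomas are from the TBT arm, so against VEH liver a tumour's difference and that of exposure cannot be told apart, and the labels name neither a strain nor whether libraries came from separate animals. The p-values below therefore measure the spread between these samples, which may be technical. Total counts per library were 21920649 to 27563960 in adenoma, 25973945 to 32850438 and 25714194 to 30362835 in TBT and VEH liver at 10 months, and 7513448 to 19270524 and 18603160 to 33704303 in TBT and VEH liver at 5 months. A count of 3, used here as the floor of detection for counting error only, was worth 0.0904 to 0.182 CPM in a library outside the TBT livers of 5 months and 0.148 to 0.429 CPM in those. The summed level of 15 hepatocyte markers was 70774 to 125889 CPM in adenoma, 112199 to 128528 CPM in TBT liver and 119122 to 158290 CPM in VEH liver at 10 months, with every marker detected in every adenoma. The albumin gene Alb was at 37718 to 82522 CPM in the adenomas.

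Promoter windows of the RefSeq annotation of GRCm38.p6, from 250 bases before to 50 bases after the annotated start, were found for 6 of the 7 genes, all but Ly6d. Those of 4 genes are shown because 3 of them (Lrtm2, Scn2a and Ddr1) were high in the same 5-month livers while Eps8l3 was not. Capitals mark CpG dinucleotides.
Lrtm2: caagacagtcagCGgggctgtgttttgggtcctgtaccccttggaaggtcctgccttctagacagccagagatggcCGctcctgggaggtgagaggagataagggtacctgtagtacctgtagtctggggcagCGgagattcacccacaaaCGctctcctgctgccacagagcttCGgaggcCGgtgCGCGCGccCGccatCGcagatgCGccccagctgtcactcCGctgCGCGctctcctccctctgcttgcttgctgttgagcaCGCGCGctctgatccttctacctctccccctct
Scn2a: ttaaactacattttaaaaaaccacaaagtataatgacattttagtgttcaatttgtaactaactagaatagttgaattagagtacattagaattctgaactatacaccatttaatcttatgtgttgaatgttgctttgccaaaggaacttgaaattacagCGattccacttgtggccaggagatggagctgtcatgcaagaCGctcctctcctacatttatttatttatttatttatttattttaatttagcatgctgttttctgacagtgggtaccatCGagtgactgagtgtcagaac
Ddr1: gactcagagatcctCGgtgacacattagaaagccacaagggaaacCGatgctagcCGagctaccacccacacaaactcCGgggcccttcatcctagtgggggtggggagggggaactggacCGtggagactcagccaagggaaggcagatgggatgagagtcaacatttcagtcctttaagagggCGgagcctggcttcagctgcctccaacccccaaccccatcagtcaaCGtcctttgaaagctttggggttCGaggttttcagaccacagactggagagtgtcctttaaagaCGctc
Eps8l3: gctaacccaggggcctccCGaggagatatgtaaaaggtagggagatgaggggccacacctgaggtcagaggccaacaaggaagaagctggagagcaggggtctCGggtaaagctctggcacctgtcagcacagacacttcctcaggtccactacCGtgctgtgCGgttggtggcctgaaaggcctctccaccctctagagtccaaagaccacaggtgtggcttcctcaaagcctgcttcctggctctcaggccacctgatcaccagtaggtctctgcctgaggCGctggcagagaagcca
These windows lie at chr6:119330717-119331016 (minus strand), chr2:65620519-65620818 (plus strand), chr17:35704550-35704849 (minus strand) and chr3:107876980-107877279 (plus strand). Each is written 5′ to 3′ on the strand of its gene.

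The windows differed in base composition. The Lrtm2 window held 18 CpG dinucleotides, a ratio of observed to expected CpG of 0.62, and the Scn2a window held 3, a ratio of 0.37. The ratio was 0.39 in the Ddr1 window, 0.19 in the Eps8l3 window and 0.25 in the Tekt5 window, against a median of 0.38 over 32851 promoter windows of the same length. The Ccdc120 window had a ratio of 0.13, but it lies 9581 bases from the 5′ end of the gene in GENCODE, so it may not be the start used by most transcripts. A search of both strands for a TATA box (TATAAA), an AP-1 motif (TGANTCA), the core of the antioxidant response element (TGACNNNGC), a TCF/LEF motif (CTTTGAT) and a GC box (GGGCGG) found 1 match in the 6 windows, the GC box of Ddr1. These motifs were present in 13.6%, 7.81%, 12.4%, 3.73% and 35.7% of all windows, in the order named. Lrtm2, Scn2a and Ddr1 had 2, 2 and 4 annotated windows. Only the window nearest to the start of each gene in GENCODE was used, and the others were not searched.

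Ly6d was the most abundant of the 7 genes in adenoma. Ly6d (ENSMUSG00000034634, chromosome 15, 74762056 to 74763620, minus strand, GRCm38) ranged from 16.9 to 436 CPM over the adenomas with a median of 226 CPM. In TBT liver of 10 months it was at 1.01, 1.56, 4.16, 1.52 and 2.36 CPM in replicates 2, 4, 8, 9 and 10, and in VEH liver it ranged from 0.75 to 1.94 CPM with a median of 0.914 CPM. Every adenoma lay above every 10-month liver, and TBT replicate 8 was the highest liver. The mean was 202 ± 137 CPM in adenoma, 2.13 ± 1.24 CPM in TBT liver and 1.11 ± 0.462 in VEH liver (SD, n = 7, 5 and 6). The ratio of means was 95.1 over TBT liver and 183 over VEH liver. In bulk tissue, fewer cells that express a gene and less of its RNA per cell cannot be told apart. Ly6d was counted in every liver, and its level per kb of exon lay at the 70.1 percentile of 21951 genes in TBT liver and at the 61.9 percentile in VEH liver. It was thus low in liver rather than silent.

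The membrane protein genes Lrtm2 and Scn2a were at or near the floor in 10-month liver. Lrtm2 (ENSMUSG00000055003, chromosome 6, 119315133 to 119330766, minus strand) ranged from 8.36 to 27.7 CPM over the adenomas, with a median of 20.2 CPM. In TBT liver all 9 of its counts came from replicate 8, at 0.353 CPM, and the other 4 libraries were at 0. In VEH liver 3 libraries were at 0 and the others held 3, 1 and 2 counts. The means were 18.2 ± 6.46 CPM in adenoma, 0.0706 ± 0.158 CPM in TBT liver and 0.0405 ± 0.0515 in VEH liver. The ratio of adenoma to VEH liver was 450, a log2 ratio of 8.81, which moved between 8.55 and 9.54 as libraries were left out in turn, the last without VEH replicate 4. Scn2a (ENSMUSG00000075318, chromosome 2, 65620771 to 65767447, plus strand) ranged from 3.46 to 9.40 CPM in adenoma with a median of 5.77 CPM. It held 3, 1, 2, 1 and 4 counts in TBT livers 2, 4, 8, 9 and 10 and 0 to 5 counts in the VEH livers. Every adenoma lay above every liver for both genes. The Scn2a means were 5.94 ± 2.04 CPM in adenoma, 0.0763 ± 0.0431 CPM in TBT liver and 0.109 ± 0.0631 in VEH liver.

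Ddr1, the collagen receptor, and Eps8l3, the EPS8 relative, differed in how far they were off in liver. Ddr1 (ENSMUSG00000003534, chromosome 17, 35681567 to 35704621, minus strand) ranged from 6.24 to 32.3 CPM in adenoma with a median of 16 CPM. In TBT liver it was at 1.38, 1.26, 2.28, 1.25 and 2.20 CPM in replicates 2, 4, 8, 9 and 10, and in VEH liver at 0.715 to 1.72 CPM with a median of 0.922 CPM. Its means were 16.4 ± 8.50 CPM in adenoma, 1.67 ± 0.518 CPM in TBT liver and 1.09 ± 0.399 in VEH liver, ratios of 9.78 and 15.1. Ddr1 was counted in every library. Eps8l3 (ENSMUSG00000040600, chromosome 3, 107877229 to 107892900, plus strand) was at 6.99, 4.05, 1.13, 0.383, 0.0427, 7.12 and 6.52 CPM in adenomas 1, 3, 5, 6, 7, 11 and 12. The lowest of these values, in adenoma 7, was 1 count. In 10-month liver the gene had 1 count in all, in TBT replicate 2, and 0 counts in the 6 VEH libraries. Against VEH liver the mean of 3.75 ± 3.20 CPM in adenoma was at least 32-fold higher, with the floor of 3 counts taken per library. The count ratio over TBT liver was 565, with a 95% counting interval of 101 to 22343.

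Of the cytoskeletal genes, Tekt5 was the most uneven among tumours and Ccdc120 the least. Tekt5 (ENSMUSG00000039179, chromosome 16, 10357948 to 10395490, minus strand) was at 7.62, 0.682, 7.70, 2.11, 0.0427, 13.3 and 1.54 CPM in adenomas 1, 3, 5, 6, 7, 11 and 12. In 10-month liver it had 3 counts, all in TBT replicate 8, at 0.118 CPM. Adenoma 7, with 1 count, lay below that liver, so the groups overlapped for Tekt5. The mean of 4.72 ± 4.94 CPM in adenoma was at least 40.3-fold above VEH liver, and the count ratio over TBT liver was 240, with a 95% counting interval of 82.0 to 1168. Ccdc120 (ENSMUSG00000031150, chromosome X, 7731714 to 7750905, minus strand) ranged from 4.23 to 9.37 CPM in adenoma with a median of 7.70 CPM. In TBT liver it was at 1.08, 0.725, 0.824, 0.610 and 0.832 CPM in replicates 2, 4, 8, 9 and 10, and in VEH liver at 0.233 to 0.836 CPM. Its means were 7.54 ± 1.92 CPM in adenoma, 0.814 ± 0.174 CPM in TBT liver and 0.573 ± 0.229 in VEH liver, ratios of 9.26 and 13.2, the smallest of the 7 genes against TBT liver.

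Every adenoma lay above every 10-month liver for 6 of the 7 genes, all but Tekt5. For Eps8l3 this rests on library size alone, with 1 count in adenoma 7 (0.0427 CPM) and 1 count in TBT liver 2 (0.0338 CPM). Both are under the floor of 3 counts, so Eps8l3 was not separated there. Over the 13474 genes tested 8.1% had this pattern, and 58.7% of the 109 genes within the bounds given above, members included. Since the members were chosen on this difference, nothing is read from the count.

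**Figure D1:**
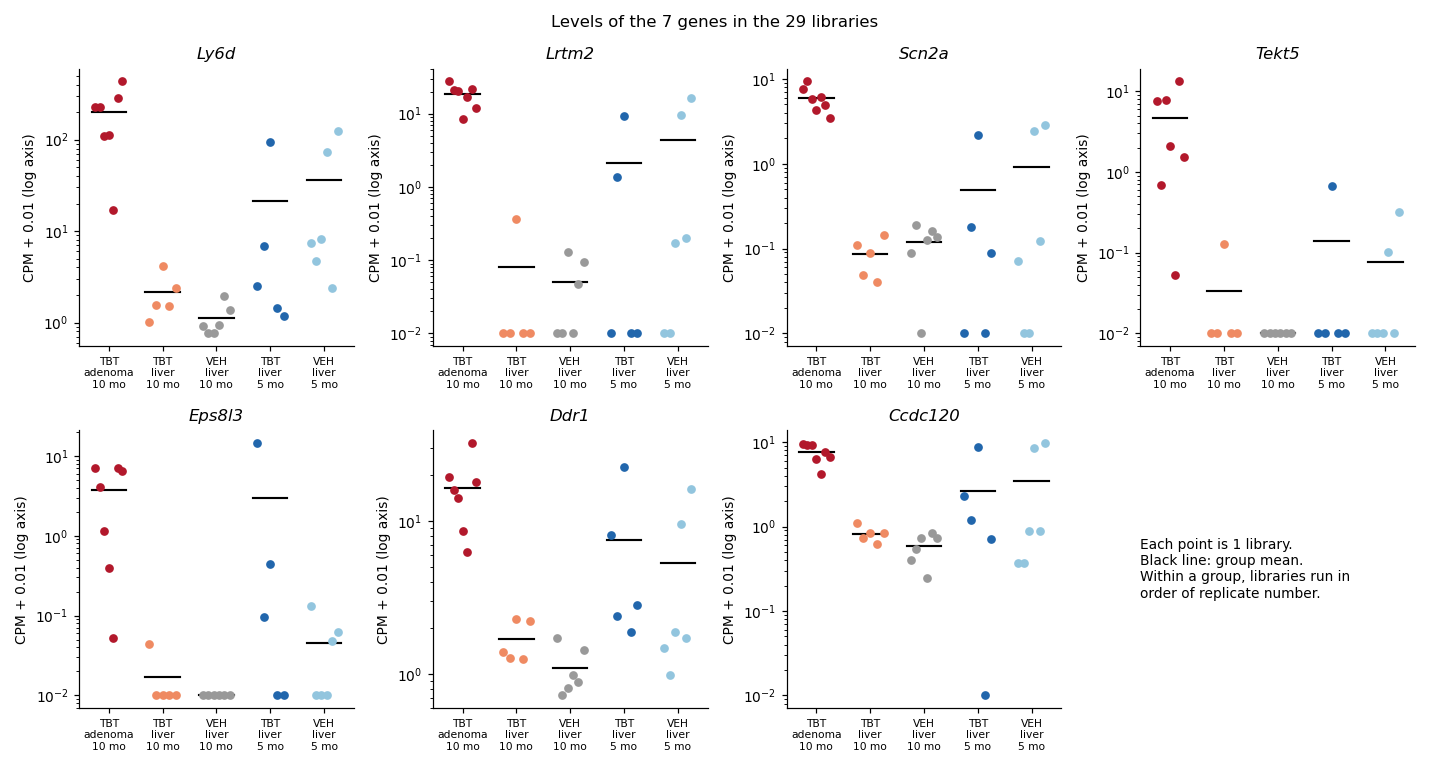
CPM plus 0.01 on a log axis for each of the 7 genes in each of the 29 libraries, with the group mean as a black line. Adenomas lie above the 10-month livers for all genes but Tekt5, where adenoma 7 falls to 0.0427 CPM. For Eps8l3 adenoma 7, also at 0.0427 CPM, and TBT liver 2 of 10 months hold 1 count each and differ by library size only. The 5-month livers range from 0 to values above every adenoma, as for Eps8l3 in TBT 2 (14.5 CPM).

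Per kb of exon, the order of the mean levels in adenoma was Ly6d (272 CPM per kb), Lrtm2 (4.44), Ddr1 (3.43), Tekt5 (2.61), Ccdc120 (1.81), Eps8l3 (1.65) and Scn2a (0.466). Ly6d stood at the 99.4 percentile of all genes in adenoma on this scale and Scn2a at the 48.0 percentile. Among the tumours the highest value of Tekt5 was 312 times the lowest and that of Eps8l3 167 times, with the lowest value at 1 count in each case. For Ly6d the span was 25.8-fold, and for Ddr1, Lrtm2, Scn2a and Ccdc120 it was 5.18-, 3.32-, 2.71- and 2.22-fold. The genes therefore did not keep a fixed ratio in the tumours. The CPM of Lrtm2 as a percentage of that of Ly6d, with no correction for gene length, was lowest in adenoma 12 at 2.75% and highest in adenoma 7, where the counts were equal, with a median of 9.06%.

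Adenoma 7 was the lowest tumour for 5 of the 7 genes, Ly6d, Tekt5, Eps8l3, Ddr1 and Ccdc120, but it ranked 5 of 7 for Lrtm2 and 3 of 7 for Scn2a. The same tumour had 5.47 CPM of Mki67, a marker of dividing cells, where the other 6 adenomas had 27.0 to 73.4 CPM, and the summed level of 20 proliferation genes was 54.9 CPM in it, against 194 to 344 CPM. It also had the highest sum of hepatocyte markers, 125889 CPM. The part of these differences in its low values was not tested.

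Eps8l3 and Ddr1 were the pair whose levels ran most closely together from tumour to tumour. The 21 pairs of genes were compared over the 7 adenomas on log2(CPM + 0.5), a spread that the choice of the genes did not use, with exact two-sided permutation tests and Benjamini-Hochberg adjustment over the 21 pairs. Eps8l3 and Ddr1 had a Pearson r of 0.92 (exact permutation p = 0.000198, adjusted p = 0.00417, the smallest p the 5040 permutations can give) and a Spearman rho of 1.00 (exact permutation p = 0.000397, adjusted p = 0.00833). Their ranks were the same in all 7 tumours. Without the 2 adenomas farthest from the median of Eps8l3, r was 0.66, so the Pearson value rests in part on those tumours. As each adenoma was left out in turn r stayed between 0.86 and 0.95, with an adjusted p of 0.0292 to 0.0583, the highest of these without adenoma 12.

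Ly6d and Eps8l3 had an r of 0.89 (exact permutation p = 0.00456, adjusted p = 0.0479) and a rho of 0.79 (exact permutation p = 0.048, adjusted p = 0.252). Their r was 0.86 without the 2 farthest tumours, and the adjusted p rose to between 0.0583 and 0.168 when any adenoma was left out. Ly6d and Ddr1 had an r of 0.83 (exact permutation p = 0.0188), which did not pass the adjustment (adjusted p = 0.132). The remaining 18 pairs did not pass either. Over all 21 pairs r ranged from -0.17, for Ly6d and Scn2a, to 0.92, with a median of 0.53 and 18 positive values.

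**Figure D2:**
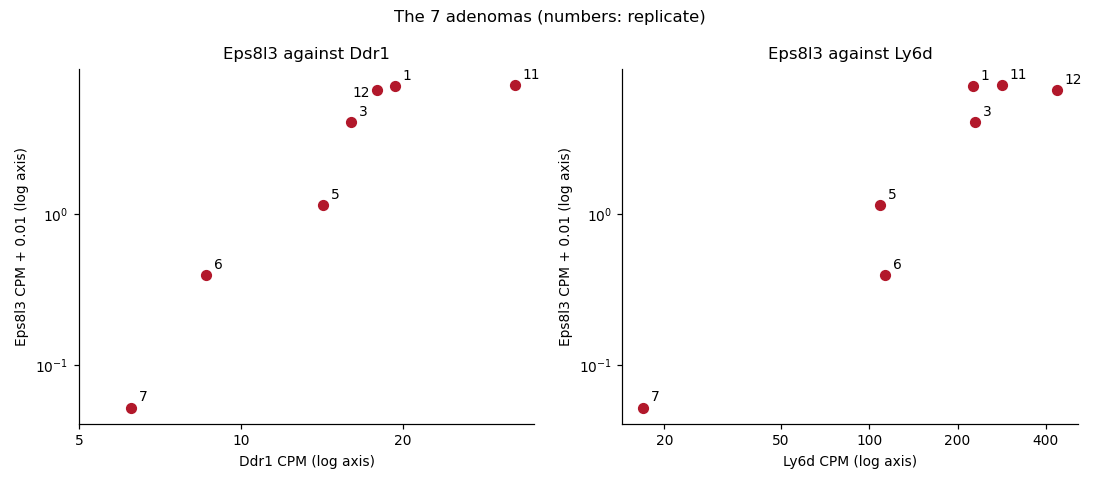
CPM of Eps8l3 plus 0.01 against CPM of Ddr1 (left) and of Ly6d (right) in the 7 adenomas, on log axes, with each point's replicate number. The order of the tumours is the same for Eps8l3 and Ddr1, from adenoma 7 (0.0427 and 6.24 CPM) to adenoma 11 (7.12 and 32.3 CPM), whereas adenoma 12 leads for Ly6d at 436 CPM.

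At 5 months the livers were not alike. TBT replicate 4 and VEH replicates 4 and 6, which had the highest Ly6d (95.0, 72.9 and 123 CPM), were also the 3 highest of the 11 livers for Lrtm2, Scn2a, Tekt5, Ddr1 and Ccdc120. Ly6d in the other 8 livers was at 1.18 to 8.09 CPM. These livers are given by library and were neither pooled nor tested as a set against the rest, since their Ly6d level is what sets them apart. The labels name no adenoma at this age. Of the 13521 genes that entered the fit of the livers or that of the 10-month libraries, 7.52% had the same 3 livers on top, and 28.2% of the 3004 genes that edgeR called higher in adenoma against both 10-month livers. Among the 109 genes within the bounds of the 7 it was 46.8%, against 6 of 7 here, of which Ly6d is the gene that singled the livers out.

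How near those 3 livers came to the adenomas differed by gene. Ccdc120 was at 8.81, 8.48 and 9.74 CPM in TBT 4, VEH 4 and VEH 6, which is 117%, 112% and 129% of the adenoma mean. Ddr1 was at 22.5, 9.54 and 16.1 CPM, 138%, 58.3% and 98.4% of it. Lrtm2 was at 9.25, 9.68 and 16.4 CPM, which is 50.7%, 53.1% and 90.0%. Scn2a was at 2.18, 2.41 and 2.82 CPM, 36.6%, 40.6% and 47.5% of the adenoma mean and below the lowest adenoma. Tekt5 stayed far lower, at 0.653, 0.0926 and 0.308 CPM, that is 6, 2 and 6 counts, while the other 8 livers of this age had 0. Eps8l3 did not follow, with 0.435, 0 and 0.0513 CPM, or 4, 0 and 1 counts.

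Outside these 3 livers Lrtm2 was at 1.37 CPM (16 counts) in TBT replicate 3, and the other 7 held 0 to 0.190 CPM. Ddr1 and Ccdc120 were next highest in TBT replicate 2, at 8.10 and 2.32 CPM. In TBT 4, VEH 4 and VEH 6 the summed level of 20 proliferation genes was 216, 251 and 112 CPM, and the other 8 livers of 5 months had 44.0 to 127 CPM, so that VEH 6 was not apart from them. The 16 bile duct markers summed to 497, 169 and 351 CPM in them, against 60.9 to 773 CPM, the highest being TBT 2. The hepatocyte markers summed to 114591, 122953 and 78922 CPM, against 93584 to 181512 CPM. The liver tumour genes summed to 760, 1148 and 1257 CPM, against 107 to 1413 CPM, and the lists not named here overlapped as well. Only the Wnt, collagen, lymphoid and sodium channel lists did not overlap between these 3 livers and the other 8. The Wnt targets summed to 740, 1044 and 1365 CPM in TBT 4, VEH 4 and VEH 6, and to 2510 to 3207 CPM in the others. Glul and Oat made up most of this sum, at 195 and 314 CPM in TBT 4. Not all genes of the list were apart. Axin2 was at 8.16, 8.38 and 6.87 CPM and Znrf3 at 13.4, 12.5 and 13.2 CPM, within the range of the other livers. The list of collagens and Ddr1 partners summed to 1717, 1084 and 908 CPM, with 554 to 715 CPM in the others. The lymphoid markers summed to 235, 270 and 195 CPM, with 119 to 161 CPM in the others, and the sodium channel genes other than Scn2a to 17.3, 11.8 and 18.9 CPM, with 3.90 to 10.4 CPM. The part of these in the levels of the 7 genes was not tested.

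**Figure D3:**
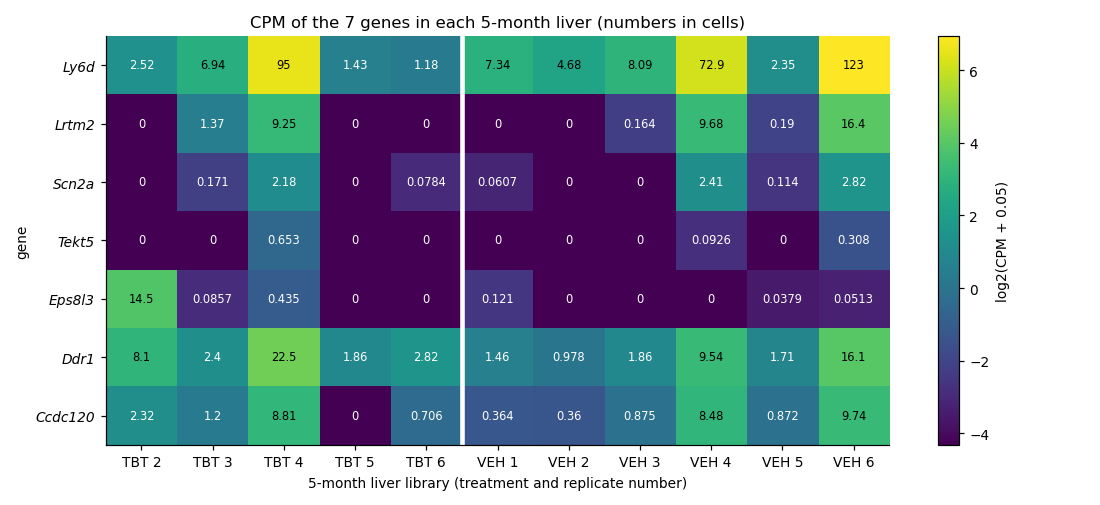
CPM of the 7 genes in the 5 TBT livers (left) and 6 VEH livers (right) of 5 months, written in the cells and coloured by log2(CPM + 0.05). TBT 4, VEH 4 and VEH 6 are the 3 highest livers for all genes but Eps8l3, whose 14.5 CPM in TBT 2 stands alone.

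Exposure to TBT was compared with VEH in liver at each age, a difference the choice of the genes did not use. Only Ly6d, Ddr1 and Ccdc120 had enough counts for the fit of the 22 livers, and 0 of these 3 passed at either age by edgeR with an adjusted p under 0.05, nor did any at an unadjusted p under 0.05 or by DESeq2. At 5 months 2.03% of 13055 genes passed (1.07% higher and 0.957% lower in TBT liver), and at 10 months 0.0% (edgeR called 0 genes, 218 had an unadjusted p under 0.05, and DESeq2 called 0 with 284). Ly6d averaged 21.4 ± 41.2 CPM in TBT liver and 36.4 ± 50.2 in VEH liver at 5 months (log2 fold change -0.76, SE 1.03, edgeR adjusted p = 0.797). Ddr1 averaged 7.54 ± 8.74 CPM in TBT liver and 5.27 ± 6.21 in VEH liver (0.53, SE 0.68, edgeR adjusted p = 0.781). Ccdc120 averaged 2.61 ± 3.57 CPM in TBT liver and 3.45 ± 4.41 in VEH liver (-0.40, SE 0.84, edgeR adjusted p = 0.88). The SDs exceeded the means, with high livers in both arms, and each of these 3 fold changes turned sign without a high liver, to 0.19 for Ly6d without VEH 6, to -0.45 for Ddr1 without TBT 4, and to 0.10 and 0.26 for Ccdc120 without VEH 4 or VEH 6.

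At 10 months the log2 fold changes of TBT over VEH liver were 0.93 for Ly6d (SE 1.22), 0.62 for Ddr1 (SE 0.72) and 0.50 for Ccdc120 (SE 0.89), each with an edgeR adjusted p of 1. The change of the TBT difference between 5 and 10 months was 1.69 for Ly6d (SE 1.60, edgeR adjusted p = 0.851), 0.09 for Ddr1 (SE 0.97, adjusted p = 0.994) and 0.90 for Ccdc120 (SE 1.22, adjusted p = 0.915). No gene passed this interaction by edgeR (0.0%, with 1139 at an unadjusted p under 0.05, while DESeq2 called 44, none of them these 3). With SEs of this size, differences of several-fold between the arms would not be detectable. The fit held the livers of both ages and gave each gene a shared spread. For all 3 genes the SD relative to the mean was larger at 5 months. For Ccdc120 it was 1.37 and 1.28 in TBT and VEH liver at 5 months, against 0.214 and 0.401 at 10 months. The SEs at 10 months therefore include the spread of the 5-month livers, and the p-values there do not show that the arms were alike.

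Lrtm2, Scn2a, Tekt5 and Eps8l3 had too few counts for the liver fit. They passed the filter only in a fit of all 29 libraries, through the adenomas for whose level they were chosen, and the adenomas also enter its estimate of spread. At 5 months 2.39% of 13675 genes passed in it. Its log2 fold changes for these genes are given as a description, with no test. In that fit Lrtm2 had a log2 fold change of -1.12 at 5 months (SE 1.15) and Scn2a of -1.03 (SE 1.00). Tekt5 was counted in only 3 livers of that age and is not compared. At 10 months these 4 genes were at or under the floor in nearly all livers and are not compared either.

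For Eps8l3 that fit gave a log2 fold change of 6.37 at 5 months (SE 1.56), a value set by 1 library. TBT replicate 2 held 294 of the 299 counts of Eps8l3 in TBT liver, at 14.5 CPM, and the other 4 were at 0.0857, 0.435, 0 and 0 CPM in replicates 3, 4, 5 and 6. VEH liver ranged from 0 to 0.121 CPM with a median of 0.019 CPM. TBT 2 lay above every adenoma, TBT 4 lay above every VEH liver with 4 counts, and the other 3 TBT livers lay within the range of VEH liver. Without TBT 2 the log2 fold change was 1.76, and over all fits that left out a library it ranged from 1.76 to 7.04.

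The same library was also the highest for most genes of intestinal epithelium. Of 16 intestinal markers, 14 were higher in TBT replicate 2 than in the other 10 livers of 5 months. Sis and Alpi, brush border enzymes, were at 668 and 401 CPM, with at most 0.326 and 0.0857 CPM in any other liver of that age. Vil1, the brush border actin bundler villin, was at 189 CPM, against at most 2.18 CPM, and Cdx2, a transcription factor of intestinal identity, at 11.6 CPM, against at most 0.0784 CPM. The marker sum was 4152 CPM in TBT 2, with 0 of 16 markers at 0, and 590 to 2883 CPM in the other 10, with Apoa4, an apolipoprotein gene, at up to 2625 CPM in these. The part of these genes in the Eps8l3 level was not tested. In the adenomas, Sis, Alpi and Cdx2 had 0 counts in all 7, while Vil1 was at 8.27 ± 7.52 CPM, against 0.217 ± 0.145 CPM in TBT liver and 0.217 ± 0.119 in VEH liver (SD, n = 7, 5 and 6). Ddr1 and Ccdc120 were also raised in TBT 2, to 8.10 and 2.32 CPM, whereas Lrtm2, Scn2a and Tekt5 were at 0 and Ly6d at 2.52 CPM there.

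**Figure D4:**
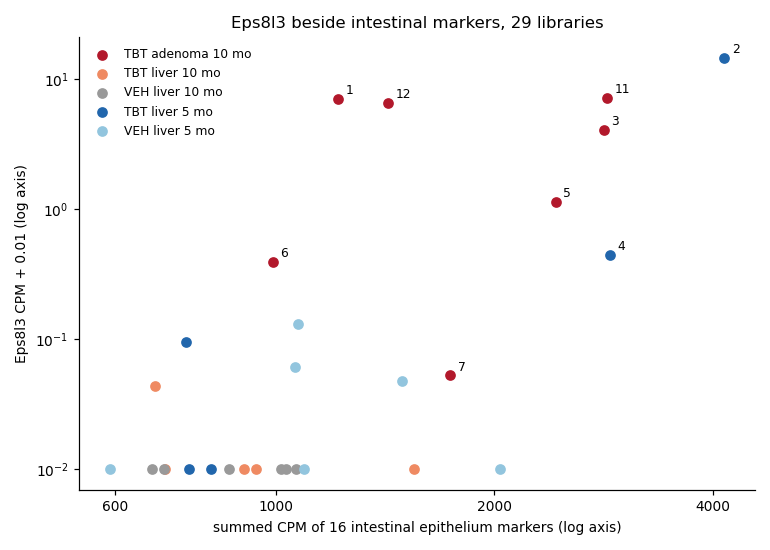
CPM of Eps8l3 plus 0.01 against the summed CPM of 16 intestinal markers in the 29 libraries, both on log axes, with replicate numbers for the adenomas and for the 5-month livers above 0.2 CPM of Eps8l3. TBT 2 of 5 months lies at 4152 CPM of markers and 14.5 CPM of Eps8l3, adenoma 11 has the highest Eps8l3 and the highest marker sum of the tumours (7.12 and 2857 CPM), and adenomas 1 and 12 reach 6.99 and 6.52 CPM of Eps8l3 at sums of 1219 and 1429 CPM. In the adenomas and the 10-month livers most of the mean sum is Apoa4, a gene also expressed in liver.

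The annotation places other genes over 3 of the 7, and whether strand was used in the counting is not given in the sources used here. Lrtm2 lies inside Cacna2d4, a calcium channel subunit gene on the opposite strand, with 0 bases of shared exon. Cacna2d4 was at 1.47 ± 0.932 CPM in adenoma, 0.105 ± 0.117 CPM in TBT liver and 0.167 ± 0.0476 in VEH liver (log2 fold change 3.77 over TBT and 3.11 over VEH, SE 0.61 and 0.54, edgeR adjusted p = 9.33e-05 and 9.87e-05). The antisense gene 4933431E20Rik covers 42.4% of the exon bases of Eps8l3 (964 bases), and Gm4577 covers 4.52% of those of Ddr1 (216 bases), so without strand their reads could not be told apart.

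Of the 14 nearest protein-coding neighbours, 12 had enough counts for a test, of which 6 were higher and 2 lower in adenoma than in VEH liver, and 6 higher and 1 lower than in TBT liver. Over all 13474 genes 27.9% were higher and 24.8% lower against VEH liver, and 23.9% and 20.8% against TBT liver. Lynx1, a Ly6 relative 9010 bases from Ly6d, was at 6.91 ± 1.56 CPM in adenoma, 1.65 ± 0.495 CPM in TBT liver and 1.23 ± 0.211 in VEH liver (log2 fold change 2.49 over VEH, SE 0.20, edgeR adjusted p = 4.78e-08). Emp2, an epithelial membrane protein gene beside Tekt5, was higher too (2.74 over VEH, SE 0.25, edgeR adjusted p = 2.87e-07). Adipor2, the adiponectin receptor gene beyond Cacna2d4, was lower (-1.16 over VEH, SE 0.17, edgeR adjusted p = 1.61e-05). Gstm5, 2921 bases from Eps8l3, did not pass (0.34 over VEH, SE 0.17, edgeR adjusted p = 0.103), nor did Praf2, 650 bases from Ccdc120 (-0.37, SE 0.25, adjusted p = 0.222).

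The genes with the most similar profiles over the 29 libraries were sought among 12360 genes that reach 1 CPM in a group, by the root mean square difference of log2(CPM + 0.5) after each gene was centred on the mean of its 5 group means. Shc2, which encodes a signalling adaptor, was nearest to both Ly6d (0.84) and Lrtm2 (0.57). It was at 23.8 ± 12.4 CPM in adenoma, 0.433 ± 0.252 CPM in TBT liver and 0.205 ± 0.142 in VEH liver, and at 18.7, 10.5 and 22.4 CPM in TBT 4, VEH 4 and VEH 6 of 5 months. Lpl, the lipoprotein lipase gene, was nearest to Scn2a (0.50), Abcc4, an export pump, to Tekt5 (0.57), Cd63, a tetraspanin of late endosomes, to Ddr1 (0.38), and Itgax, the integrin chain CD11c of dendritic cells and macrophages, to Ccdc120 (0.42). Cx3cr1, a chemokine receptor of the same myeloid cells, came next for Ccdc120 (0.44), at 14.0 ± 5.61 CPM in adenoma, 1.87 ± 0.633 CPM in TBT liver and 1.45 ± 0.222 in VEH liver. The nearest to Eps8l3 were Tmem238l (0.36), the receptor phosphatase Ptprh (0.59) and Misp (0.59), an actin-bundling protein. Among the 7 themselves the closest pair was Ddr1 and Ccdc120 (0.53) and the farthest Ly6d and Eps8l3 (2.29). Low genes lie close together on this scale because the added 0.5 CPM flattens them. The 29 libraries include the adenomas and 10-month livers whose difference chose the 7 genes. A near gene must largely share that difference, so the likeness is given as a description and nothing is read from it.

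Relatives and partners of the 7 genes were counted in the same 10-month fit, without the 7, in lists that were drawn up with earlier results of these data known. Over all genes the median log2 fold change was 0.01 in both comparisons, and 52.6% of genes passed in either direction against VEH liver and 44.7% against TBT liver. In the Ly6 family 10 of 34 genes had enough counts, and 6 of them were higher and 2 lower in adenoma against either liver group (median 1.94 over TBT and 1.81 over VEH). Ly6e, a widely expressed member, was at 596 ± 231 CPM in adenoma, 165 ± 35.1 CPM in TBT liver and 152 ± 9.79 in VEH liver (1.97 over VEH, SE 0.22, edgeR adjusted p = 1.82e-06). Ly6a, Ly6c1, Ly6c2 and Plaur rose as well, by 2.28, 3.82, 1.65 and 2.15 over VEH (edgeR adjusted p = 0.000124, 4.48e-05, 0.00056 and 3.26e-05), while the complement inhibitors Cd59a and Cd59b fell by 0.42 and 1.32 (edgeR adjusted p = 0.00256 and 0.000312). Ly6c1 was at 2.90 ± 2.10 CPM in adenoma, 0.0644 ± 0.0636 CPM in TBT liver and 0.205 ± 0.129 in VEH liver.

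Of cells in which Ly6d is a marker, squamous and urothelial cells left few counts. Their 14 markers summed to 1.45 to 36 CPM in adenoma, 0.746 to 1.22 CPM in TBT liver and 0.5 to 2.15 CPM in VEH liver, with 3 to 10 of them at 0 in an adenoma and Upk2 and Upk3a at 0 in all 7. The highest sum was that of adenoma 3, whose Ly6d of 230 CPM ranked 3 of 7. Of 2 markers tested, 1 was higher and 0 lower against either liver group. The 16 lymphoid markers summed to 159 to 303 CPM in adenoma, 122 to 140 CPM in TBT liver and 114 to 142 CPM in VEH liver, and of 11 tested 6 were higher and 0 lower than in VEH liver, 3 and 0 than in TBT liver. Smallest in adjusted p was Bst2, an interferon-induced membrane protein, at 185 ± 55.2 CPM in adenoma, 98.3 ± 4.16 CPM in TBT liver and 97.3 ± 11.1 in VEH liver (0.93 over VEH, SE 0.15, edgeR adjusted p = 6.31e-05). Bst2 made up most of the sum. Dntt, an enzyme of early lymphocytes, was at 6.79 CPM in adenoma, 6.35 CPM in TBT liver and 6.31 in VEH liver on average and did not pass (0.11 over VEH, edgeR adjusted p = 0.781), and Rag1, Rag2, Vpreb1, Vpreb3 and Igll1 were too low for a test. The part of these markers in the Ly6d level was not tested.

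Other sodium channel genes shared the direction of Scn2a. Of 14 listed, 5 were tested, and 4 were higher and 0 lower than in VEH liver, 3 and 0 than in TBT liver. Scn8a, another pore-forming subunit, was at 6.67 ± 6.69 CPM in adenoma, 0.511 ± 0.220 CPM in TBT liver and 0.354 ± 0.0745 in VEH liver (4.22 over VEH, SE 0.70, edgeR adjusted p = 9.32e-05). Scn3a, the neighbour of Scn2a on chromosome 2, did not pass (0.51, SE 0.41, edgeR adjusted p = 0.301). The 16 neuronal and endocrine markers summed to 11.6 to 49.8 CPM in adenoma, 8.72 to 16.5 CPM in TBT liver and 9.58 to 14.0 CPM in VEH liver, and Nefm, a neurofilament gene, was at 0 in all adenomas. Of 5 tested, 2 (Ncam1 and Map2) were higher and 1 (Rbfox3) lower than in VEH liver, and 2 and 0 than in TBT liver. Among 25 genes of leucine-rich repeat membrane proteins 11 were tested, and 4 were higher and 2 lower than in VEH liver, 4 and 1 than in TBT liver. Lrtm1, the closest relative of Lrtm2, went the other way, at 3.31 ± 3.13 CPM in adenoma, 9.99 ± 5.93 CPM in TBT liver and 13.3 ± 5.05 in VEH liver (-2.03 over VEH, SE 0.56, edgeR adjusted p = 0.00568).

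Most of the collagen genes, whose products are the ligands of Ddr1, were higher in adenoma too. Of 19 tested genes among collagens, Ddr2 and signalling partners, 14 were higher and 1 lower than in VEH liver and 15 and 1 than in TBT liver (medians 1.34 and 1.21). Col1a1 was at 45.3 ± 18.6 CPM in adenoma, 6.80 ± 2.77 CPM in TBT liver and 3.83 ± 0.988 in VEH liver (3.57 over VEH, SE 0.31, edgeR adjusted p = 2.1e-07). Ddr2, the other collagen receptor of this kind, changed less, at 8.76 CPM in adenoma, 6.13 CPM in TBT liver and 5.93 in VEH liver on average (0.57 over VEH, edgeR adjusted p = 0.0156). In TBT 4 of 5 months Col1a1 was at 109 CPM, above the adenoma mean, and in VEH 4 and VEH 6 at 36.2 and 19.7 CPM. The bile duct markers, another epithelial source of Ddr1, summed to 227 to 905 CPM in adenoma, 80.4 to 108 CPM in TBT liver and 62.9 to 88.3 CPM in VEH liver, with none of 16 at 0 in an adenoma. Of 15 tested, 13 were higher and 0 lower than in VEH liver, 14 and 1 than in TBT liver, among them Epcam (2.53 over VEH, SE 0.27, edgeR adjusted p = 1.01e-06). Their part in the Ddr1 level was not tested.

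Of 14 genes of the EPS8 family and its actin partners, 9 were higher and 0 lower than in VEH liver, 8 and 0 than in TBT liver. The other EPS8 relatives changed little: Eps8 had a log2 fold change of 0.67 over VEH (edgeR adjusted p = 0.00512) and 0.45 over TBT (0.0667), while Eps8l1 (0.47 over VEH) and Eps8l2 (-0.10) did not pass (edgeR adjusted p = 0.356 and 0.342). The genes of this list that rose most were Baiap2l2, of the same actin machinery, at 1.30 ± 0.972 CPM in adenoma, 0.0129 ± 0.0176 CPM in TBT liver and 0 in all VEH livers, and Vil1 (5.22 over VEH, SE 0.75, edgeR adjusted p = 2.58e-05). Both were also high in TBT 2 of 5 months, at 6.62 and 189 CPM. In the adenomas the intestinal markers summed to 989 to 2857 CPM, against 680 to 1552 CPM in TBT liver and 674 to 1067 CPM in VEH liver, with 4 to 7 of 16 at 0. Of 7 tested, 5 were higher and 0 lower against either liver group, namely Vil1, Apoa4, Tff3, Cdhr2 and Cdhr5. Apoa4 made up most of the mean marker sums, at 1469 CPM in adenoma, 752 CPM in TBT liver and 699 in VEH liver.

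The tektins other than Tekt5 were too low for any test, with a sum of at most 0.290 CPM in an adenoma. Of 15 sperm and cilium markers 4 were tested and 3 were higher and 0 lower against either liver group. Foxj1, the master regulator of motile cilia, was at 2.02 ± 0.697 CPM in adenoma, 0.252 ± 0.0514 CPM in TBT liver and 0.351 ± 0.173 in VEH liver (2.52 over VEH, SE 0.31, edgeR adjusted p = 3.46e-06), and Dnah5, a dynein of motile cilia, had 3.79 (SE 0.69, edgeR adjusted p = 0.000187). The sperm genes Acrv1, Akap4 and Odf1 were at 0 in all adenomas. For Ccdc120, 17 centriole appendage and cytohesin genes were tested, of which 9 were higher and 1 lower than in VEH liver, 7 and 0 than in TBT liver. Inava, a cytohesin regulator, rose too (edgeR adjusted p = 7.32e-07 over VEH), at 3.66 ± 2.55 CPM in adenoma, 0.0349 ± 0.0238 CPM in TBT liver and 0.0125 ± 0.0193 in VEH liver. The centriole appendage gene Nin rose by 0.80 over VEH (SE 0.11, edgeR adjusted p = 1.66e-05).

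Lists that describe the tissue as a whole moved as follows. All 20 proliferation genes were higher in adenoma against either liver group, and 16 of 18 tested liver tumour genes were higher with 0 lower. Of 15 hepatocyte markers, 1 was higher and 7 lower than in TBT liver, and 1 and 9 than in VEH liver. Of 15 tested Wnt target genes, 0 were higher and 1 lower than in TBT liver, and 0 and 5 than in VEH liver. The tumours were uneven here: the Wnt targets summed to 4198 CPM in adenoma 6, above every liver, to 2017 CPM in adenoma 7 and to 541 to 920 CPM in the other 5. Glul and Oat made up most of the mean sum in adenoma, at 564 ± 519 and 518 ± 517 CPM. Adenomas 6 and 7 were also the lowest for Ddr1, Eps8l3 and Ccdc120. The part of these lists in the levels of the 7 genes was not tested.

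**Figure D5:**
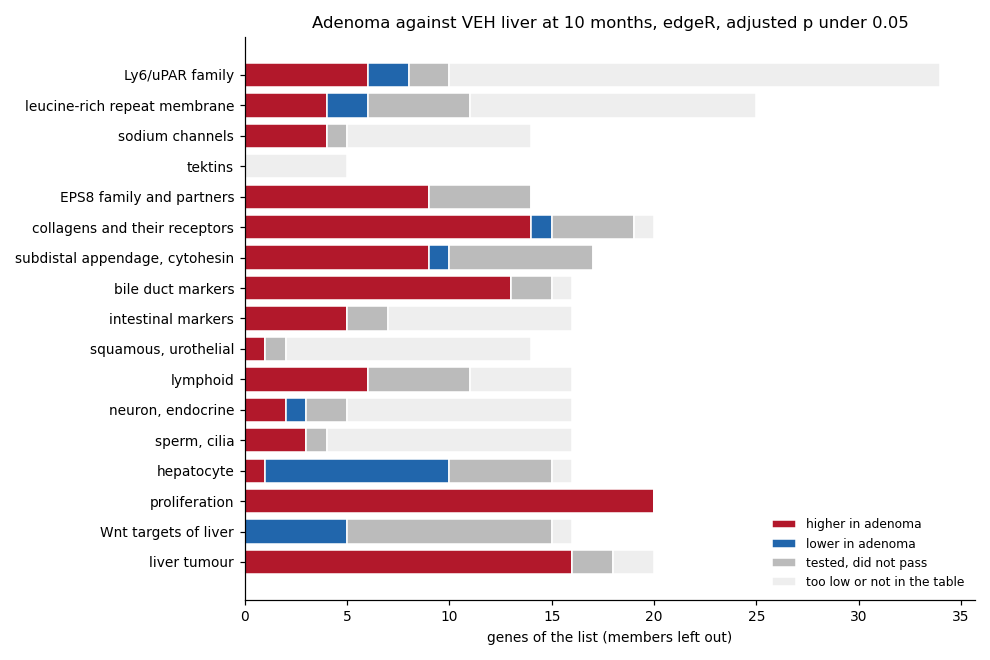
For each gene list, the number of genes higher (red) or lower (blue) in adenoma than in VEH liver at 10 months at an edgeR adjusted p under 0.05, tested without passing (grey) and too low or not found (light grey). The 7 genes themselves are left out, and the Ly6 family has 6 higher and 2 lower of 34, the bile duct markers 13 and 0 of 16.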

How the data were processed

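The deposited table gives raw counts of reads for each coding gene in 29 libraries, which the authors had not normalised. Per the labels' protocols, RNA came from silica columns with DNase treatment and libraries from a stranded total RNA kit. The tools were HISAT2, featureCounts, Trim Galore, FastQC and edgeR on the mm10 build, per the submitters' processing notes. The sources used here do not give their versions, settings, annotation or use of strand. Symbols stored as dates (27) were restored from gene identifiers. For 1 TBT liver of 10 months the title gives number 8 and the column name 9, and 9 was used.

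Counts were tested with edgeR 4.0.16 in R 4.3.3 (TMM, filterByExpr with minimum count 10 and minimum total 15, robust quasi-likelihood fits, two-sided, Benjamini-Hochberg adjustment over all genes tested, threshold 0.05). The 22 livers formed 1 fit (13055 genes) and the 18 libraries of 10 months another (13474 genes). A fit of all 29 libraries (13675 genes) served for genes too low in the liver fit. Levels are CPM scaled by TMM over the 29 libraries without a filter, and fold changes are on the log2 scale. Positions come from GENCODE M21 on GRCm38 and promoters from RefSeq on GRCm38.p6. DESeq2 1.42.0, other scalings, filters, pseudocounts, groupings and omissions were tried. The tests were checked on simulated counts. No 2 replicates were alike beyond sampling noise (71 pairs, lowest ratio of chi-square to degrees of freedom 18.6).

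The members and the gene lists were chosen with earlier results of these data known. Named are the 7 genes, up to 4 genes of a list by smallest adjusted p and family members reaching 1 CPM in a group, the 3 nearest profiles, overlapping and neighbouring genes, and markers at 0. Markers given for single libraries (Mki67, Alb, Sis, Alpi, Vil1, Cdx2) were picked after their values were seen.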

Additional observations from a re-analysis of the deposited data

Results flagged for a closer look

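Within each group of 4 or more samples, the highest or lowest library of a gene was set against Dixon's critical value, as the gap to its nearest neighbour divided by the range. Chance flags about 1 in 20 groups, and 10 of 33 stood out here, most of them through the same libraries. That rate does not hold where all other libraries are at 0, since any count then gives a ratio of 1, as in 4 of the 10. It also does not hold for TBT 4 and VEH 6 of 5 months, whose high Ly6d was known beforehand. Their flags are listed as a description, and nothing is read from the count of flags. In 5-month TBT liver, replicate 4 was apart from the others for Ly6d (95.0 CPM, next 6.94, ratio 0.939), Lrtm2 (9.25, next 1.37, ratio 0.852), Scn2a (2.18, next 0.171, ratio 0.921), Tekt5 (0.653, the rest 0, ratio 1) and Ccdc120 (8.81, next 2.32, ratio 0.736). In the same group replicate 2 was apart for Eps8l3 (14.5 CPM, next 0.435, ratio 0.97). In 5-month VEH liver, replicate 6 was apart for Tekt5 (0.308 CPM, next 0.0926, ratio 0.699), which is 6 counts.

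In 10-month TBT liver, replicate 8 was apart for Lrtm2 (9 counts, the rest 0, ratio 1) and Tekt5 (3 counts, the rest 0, ratio 1), and it also had the highest Ly6d and Ddr1 of the 5, at 4.16 and 2.28 CPM. Replicate 2 was apart for Eps8l3 by 1 count (ratio 1), which is under the floor of 3 counts.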

How the results depend on the processing

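The mean levels of the 7 genes in adenoma moved by less than the spread between tumours, and the log2 ratios to liver of Ly6d, Lrtm2, Scn2a, Ddr1 and Ccdc120 kept their sign, under median-of-ratios (RLE) scaling, library totals and omission of any library, except that the ratio of Lrtm2 to TBT liver has no value without TBT replicate 8, where all its counts lie. No such ratio was computed for Tekt5 and Eps8l3. The Lrtm2 log2 ratio to VEH liver ranged from 8.55 to 9.54. At 5 months edgeR called 265 genes between TBT and VEH liver, DESeq2 591, and 71 to 414 without 1 library. Without VEH 4 and 6 and TBT 2 and 4, an omission chosen after seeing the data, the count was 47. At 10 months a replicate block gave 1 call in place of 0. For the interaction DESeq2 gave 44 and omission of a library 0 to 1. Omission gave 6571 to 7365 calls of adenoma against VEH liver and 5305 to 6435 against TBT liver.

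The labels tie samples with the same replicate number to no shared animal or batch, and their deviations ran together in some pairs only (correlations of 0.028, 0.424, 0.656, 0.364 and -0.46 at 5 months), so the numbers were not taken as pairs. A block on that number gave 31 calls at 5 months, 4359 for adenoma against VEH liver and 63 against TBT liver. In it Ly6d at 10 months turned to -0.20 and the interaction of Ddr1 to -0.57.

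Signs at 5 months turned elsewhere too. Without the 4 livers Ccdc120 had 0.16 and the interaction of Ddr1 -0.07. In the fit that Lrtm2, Scn2a and Eps8l3 entered only through the adenomas, their values without those livers were 2.29, 0.88 and -0.21, given as a description. Over omission of each library Ly6d ranged from -3.59 to 0.19, Ddr1 from -0.45 to 1.29, Ccdc120 from -1.60 to 0.26 and the interaction of Ddr1 from -0.68 to 1.07. None of these values of Ly6d, Ddr1 and Ccdc120 passed. Of 21 pairs of genes, 2 passed among adenomas and 0 to 1 when a tumour was left out, where fewer permutations exist. The cause of the other shifts was not tested. Counting error limits Lrtm2, Scn2a, Tekt5 and Eps8l3 in liver, where most libraries held under 3 counts.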
